A study of Mus musculus with 24 samples.

Results

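The response to LPS of mouse macrophages whose p38 kinase was blocked with SB202190 was read from 6 of the 24 Illumina MouseRef-8 v2 arrays of the study, which were chosen by their sample titles. The cells were bone marrow-derived macrophages (BMDMs) of C57BL/6 mice 8 to 10 weeks of age, grown for 7 days in medium conditioned by L929 cells, a fibroblast line that secretes the macrophage growth factor CSF1. The groups were SB202190 with 4 h of LPS, SB202190 at 0 h, the DMSO solvent control with 4 h of LPS and the DMSO control at 0 h, with 3 arrays in each. SB202190 was given at 10 µM for 2 h before 100 ng/ml LPS, so that the 0 h arrays of the inhibitor group had also met the inhibitor. The sample labels call the cells RAW264.7, a mouse macrophage line, and the control wild type, whereas the methods of the study describe BMDMs and DMSO, and the methods were followed. The sources used here do not state whether each array of a group had its own mouse or culture, and the p-values reflect array-to-array spread that may be technical.

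LPS, a lipid of the outer membrane of Gram-negative bacteria, binds CD14 and the TLR4-MD2 complex on macrophages. Through MyD88, IRAK kinases and TRAF6 the receptor activates the IKK complex, which marks IκB proteins for degradation and frees NF-κB dimers for the nucleus, and through TRIF it activates IRF3 and the interferon β gene. The same adaptors switch on the MAP kinases ERK, JNK and p38. Active p38α phosphorylates MK2, which inactivates the mRNA-destabilizing protein TTP, and MSK1 and MSK2, which phosphorylate CREB and histone H3 at immediate-early and anti-inflammatory genes. SB202190 is a pyridinyl imidazole that competes with ATP in p38α and p38β. The comparison of 4 h with 0 h in its presence asks which genes LPS moves when the p38 arm is blocked.

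The normalized columns of the inhibitor arrays can only in part be traced to the intensities deposited beside them. Of the 6 columns, SB202190 replicate 2 at 4 h had the probe order of an intensity column labelled SB202190 4 h replicate 3, and SB202190 replicate 2 at 0 h that of one labelled DMSO 4 h replicate 3. The other 4 matched no intensity column, with highest rank correlations of 0.934 to 0.938. For each of them the closest intensity column was the one that replicate 2 of the same time matched. Whether the normalized columns of an inhibitor group come from separate arrays was not tested. The arrays within an inhibitor group were nearly alike, at 0.997 to 0.998 (Pearson r across genes) at 4 h and 0.993 to 0.997 at 0 h, against 0.933 to 0.974 for DMSO at 4 h and 0.907 to 0.971 at 0 h. Their median SD over genes on the log2 scale was 0.082 at 4 h and 0.11 at 0 h, against 0.28 at 4 h and 0.31 at 0 h with DMSO. The labels place the arrays of one replicate number on one BeadChip. On BeadChips 1 and 2 the deposited intensities hold a 4 h and a 0 h array labelled SB202190 that appear in no normalized column, and over all genes their LPS changes correlated with those of the normalized values at 0.22 and 0.23. On BeadChip 3, whose pair is the traceable replicate 2 and so no independent measurement, the correlation was 0.978. On BeadChips 1 and 2 the columns labelled SB202190 0 h already read high in the genes that lead the response. In each of the 15 largest rises they were above the traceable 0 h column of BeadChip 3, as for *Il6* with 2290 and 1782 against 76.1. Changes on BeadChips 1 and 2, which start from these 0 h columns, are given beside the main groups of genes. Whether those arrays or the normalized columns carry the wrong label was not tested.

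**Figure D1:**
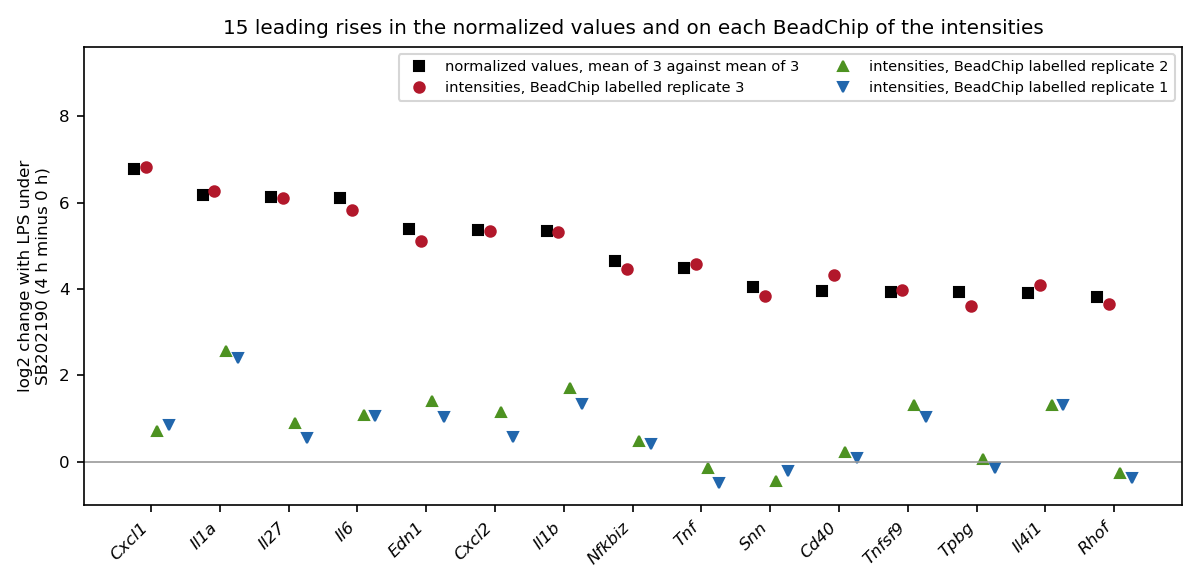
Log2 change with LPS of the genes that lead the response in the normalized values (4 h minus 0 h, SB202190), as read from the intensity columns on each of the 3 BeadChips. On BeadChip 3 all 15 leading rises were at least 2-fold higher at 4 h, against 6 on BeadChip 1 and 7 on BeadChip 2. The pair of BeadChip 3 is the traceable replicate 2 and so part of the values from which the 15 genes were chosen. Its 0 h column is labelled DMSO 4 h replicate 3.

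With p38 blocked, 4 h of LPS left 1987 of 9027 genes higher than at 0 h and 2675 lower at an adjusted p under 0.05 by limma, which is 22% and 29.6% of the genes tested and 51.6% in all. The arrays of a group lay so close together (median standard error of a log2 change 0.092) that 3936 of these genes moved by less than 2-fold. A change of at least 2-fold as well was seen for 424 genes that rose (4.7%) and 302 that fell (3.35%), and one of at least 4-fold for 122 and 38. Of the 424 rises, 30 were not above background, a signal of 121.6 set from the number of detected probes, on any 0 h array, and of the 302 falls 9 were not above background on any 4 h array. The median log2 change of all genes was -0.035. Counts of genes that rose and fell in a list are to be read beside the 22% and 29.6% of all genes. For counts of at least 2-fold in the normalized values the shares of all genes are 4.7% and 3.35%. Folds are given as 4 h over 0 h for rises and 0 h over 4 h for falls, and other changes are on the log2 scale. In a fit of all 4 groups, which lends the spread of the DMSO arrays to the inhibitor arrays, 494 genes rose and 457 fell, and with the intensities in place of the normalized values 0 passed (102 at an unadjusted p under 0.05). In the intensities of BeadChips 1 and 2, 262 and 279 of the 424 rises lay above 0 and 24 and 27 were at least 2-fold higher. Of the 302 falls, 219 and 210 lay below 0 there and 11 and 17 were at least 2-fold lower. Of all 9027 genes, 61 and 62 were at least 2-fold higher on these BeadChips and 39 and 40 lower. Counts of at least 2-fold on BeadChips 1 and 2 are to be read beside these. The median change of all genes there was 0.0033 and -0.007.

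The largest rise was that of the neutrophil chemokine gene *Cxcl1*. Its normalized signal was 19681, 22925 and 21406 at 4 h, against 216, 193 and 174 at 0 h, a 109.9-fold rise with a log2 change of 6.78 (standard error 0.099, adjusted p = 1.86e-15). No 4 h array came near a 0 h array. *Il1a* and *Il27*, which encode the alarmin cytokine IL-1α and a subunit of the IL-12 family cytokine IL-27, followed with signals of 23125, 24719 and 20509 at 4 h, against 327, 326 and 289 at 0 h for *Il1a*, and of 11789.5, 12100.0 and 10827 at 4 h, against 204, 161 and 138 at 0 h for *Il27*. The log2 change of *Il1a* was 6.18 (standard error 0.095, adjusted p = 1.94e-15). That of *Il27* was 6.13 (standard error 0.12, adjusted p = 1.88e-14). *Il6* read 7108, 7083 and 8625 at 4 h, against 105, 105 and 121.5 at 0 h, and since no 0 h array was above the background of 121.6 its rise was at least 62.3-fold (adjusted p = 3.24e-15). *Edn1*, the gene of the vasoconstrictor peptide endothelin-1, rose 42.0-fold. *Cxcl2*, a second neutrophil chemokine, and the pyrogen gene *Il1b* rose 41.0-fold and 40.3-fold. In these 7 genes each 4 h array was above each 0 h array, which the choice of leading rises required. The same held in 2331 genes (25.8%) of the table.

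The other leading rises held genes of several kinds. *Nfkbiz*, which encodes the nuclear IκB protein IκBζ that helps NF-κB turn on secondary genes, rose 25.1-fold, with signals of 9864, 10132 and 11122 at 4 h, against 373, 471 and 399 at 0 h. *Tnf* rose 22.3-fold, with 47052, 42352 and 46569.6 at 4 h, against 2237, 1926 and 1932 at 0 h. The costimulatory receptor gene *Cd40* rose 15.4-fold and *Tnfsf9*, the ligand of the T cell costimulator 4-1BB, 15.3-fold. *Il4i1*, a secreted amino acid oxidase, rose 15.1-fold, *Rhof* 14.2-fold, *Tpbg*, a membrane glycoprotein of the Wnt pathway, 15.2-fold, and *Snn* 16.6-fold. The log2 changes of these 15 genes on BeadChips 1 and 2 ran between -0.48 and 2.40 and between -0.44 and 2.56. For *Cxcl1* they were 0.86 and 0.71, for *Il6* 1.07 and 1.08, for *Tnf* -0.48 and -0.14 and for *Cd40* 0.084 and 0.22.

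**Figure D2:**
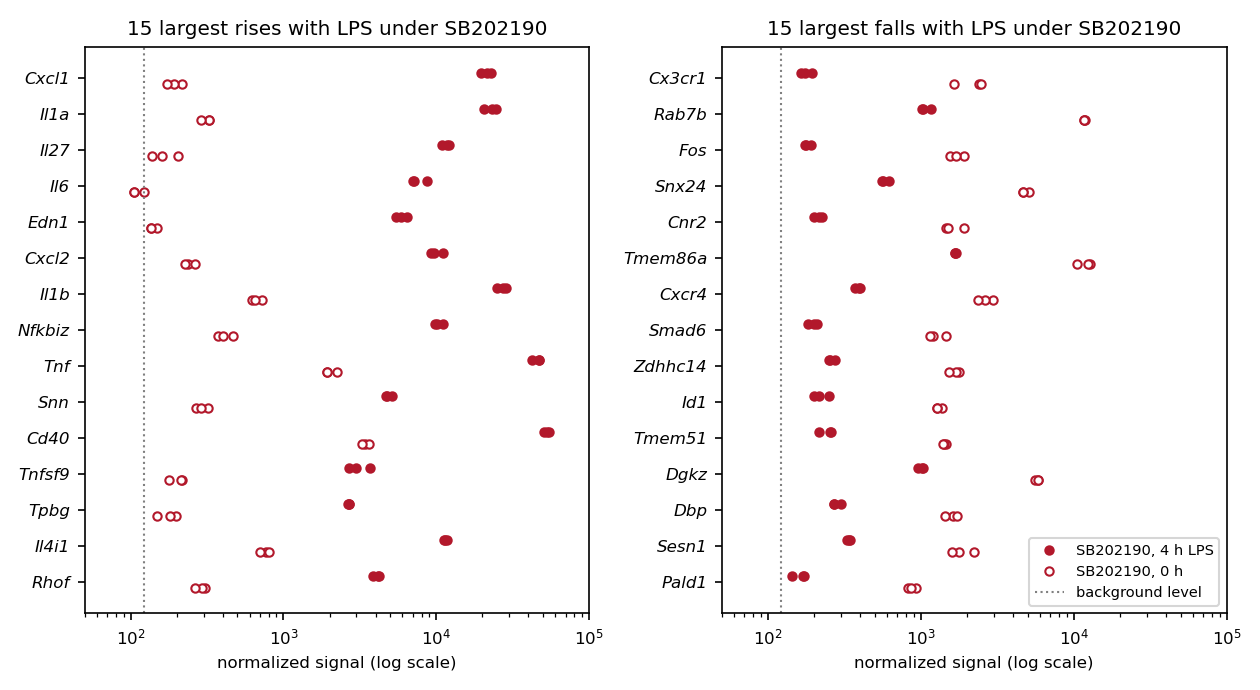
Normalized signal on a log scale of the 15 largest rises and the 15 largest falls with LPS under SB202190, each array at 4 h and at 0 h as a point. The 30 genes were picked among those whose 3 arrays at 4 h lie apart from the 3 at 0 h, so that this separation was set by the choice.

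The promoters of 4 of the genes are printed because they hold matches to motifs that NF-κB and CREB are known to bind. Each runs 5′ to 3′ on the gene's own strand from 250 bases before to 50 after the annotated start (RefSeq, GRCm38.p6), with motif matches in capitals. *Cxcl1* lies on the plus strand at chr5:90890995-90891294, *Il6* on the plus strand at chr5:30012864-30013163, *Nfkbia*, the gene of the inhibitor IκBα, on the minus strand at chr12:55492598-55492897 and *Dusp1*, the gene of a phosphatase that turns off p38, on the minus strand at chr17:26508423-26508722. The capitals mark the κB motif, GGG and TTCC with any 3 bases between them, on either strand in the first 3 and the cyclic AMP response element TGACGTCA, which reads the same on both strands, in *Dusp1*.
*Cxcl1*: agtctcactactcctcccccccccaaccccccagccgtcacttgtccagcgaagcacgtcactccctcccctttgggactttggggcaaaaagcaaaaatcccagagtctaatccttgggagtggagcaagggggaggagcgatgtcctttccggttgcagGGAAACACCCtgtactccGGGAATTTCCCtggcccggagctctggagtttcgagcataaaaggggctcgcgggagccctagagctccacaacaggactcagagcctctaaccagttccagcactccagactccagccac
*Il6*: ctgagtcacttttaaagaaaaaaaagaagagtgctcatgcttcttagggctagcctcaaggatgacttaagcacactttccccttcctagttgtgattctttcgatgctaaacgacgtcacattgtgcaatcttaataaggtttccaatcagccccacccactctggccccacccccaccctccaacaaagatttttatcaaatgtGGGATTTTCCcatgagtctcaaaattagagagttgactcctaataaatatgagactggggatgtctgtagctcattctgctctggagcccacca
*Nfkbia*: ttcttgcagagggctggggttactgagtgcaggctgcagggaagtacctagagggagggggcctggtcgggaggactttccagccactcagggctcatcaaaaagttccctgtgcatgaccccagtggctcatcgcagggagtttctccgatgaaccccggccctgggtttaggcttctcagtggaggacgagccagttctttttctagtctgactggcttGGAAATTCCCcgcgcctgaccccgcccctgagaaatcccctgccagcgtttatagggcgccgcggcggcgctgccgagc
*Dusp1*: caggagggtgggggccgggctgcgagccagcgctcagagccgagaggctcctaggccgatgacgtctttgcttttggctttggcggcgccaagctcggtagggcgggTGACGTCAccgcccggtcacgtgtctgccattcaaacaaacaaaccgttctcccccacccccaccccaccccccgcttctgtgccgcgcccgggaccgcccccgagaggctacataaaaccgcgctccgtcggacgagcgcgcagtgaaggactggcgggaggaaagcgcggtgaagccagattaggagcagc

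The *Cxcl1* window held 3 κB matches, 2 of which overlap on opposite strands, with the first at -89 to -80 from the start. The match of *Il6* lay at -44 to -35, that of *Nfkbia* at -29 to -20 and the element of *Dusp1* at -143 to -136. Promoters were found for 332 of the 424 genes that rose at least 2-fold (462 windows), for 247 of the 302 that fell (337 windows) and for 7417 of the 9027 tested (9520 windows). The κB motif was in 11% of the windows of the rises and 5.34% of those of the falls, beside 6.23% of those of all genes tested and 5.56% of the 32851 windows of the whole table. The AP-1 motif TGANTCA was in 8.01% and 9.2%, beside 5.87% and 7.81%, and the cyclic AMP element in 3.68% and 2.08%, beside 2.97% and 1.79%. Both strands were searched, and κB and AP-1 matches may overlap other motifs. A match is a run of letters and was not tested for binding.

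Most cytokine genes rose. Of 21 measured, 17 rose, 14 of them at least 2-fold, and none fell, with a median log2 change of 1.79 beside -0.035 for all genes. *Csf2*, the gene of the growth factor GM-CSF, read 1045, 1141 and 1004 at 4 h, against 96.8, 92.3 and 89.8 at 0 h, which is at least 8.73-fold, and the interferon β gene *Ifnb1* rose by a log2 change of 3.20 (standard error 0.082, adjusted p = 2.28e-13). *Csf1* rose 6.53-fold, *Il15*, which supports NK cells, 4.83-fold and *Osm*, a cytokine of the IL-6 family, 2.87-fold. *Il12a*, the gene of the IL-12 subunit p35, read 314, 293 and 311 at 4 h, against 87.7, 86.2 and 91.8 at 0 h, a rise of at least 2.52-fold. *Il10*, the gene of the anti-inflammatory cytokine IL-10, rose 2.51-fold, with 779, 812 and 708 at 4 h, against 303, 299.7 and 312 at 0 h. The 4 that did not pass were *Il19*, *Il1rn*, *Il33* and *Csf3*, with log2 changes of 0.22, 0.16, 0.13 and 0.084, where *Il33* was below background at both times and *Csf3* at 0 h. The median of the cytokine list on BeadChips 1 and 2 was 0.22 and 0.63, and 6 and 8 members were at least 2-fold higher.

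Chemokine genes were divided. Of 18 measured, 10 rose and 2 fell, 6 and 1 of them by at least 2-fold, at a median of 0.30. Beside *Cxcl1* and *Cxcl2*, the interferon-inducible T cell chemokine *Cxcl10* rose 10.0-fold, with 37674, 42655 and 39025 at 4 h, against 4295, 4429 and 3263 at 0 h. The macrophage inflammatory protein gene *Ccl3* rose 5.67-fold and the monocyte chemokine *Ccl2* 3.38-fold. *Cxcl9*, which like *Cxcl10* binds CXCR3, went the other way with 515, 469 and 440.1 at 4 h, against 1255, 1318 and 1061 at 0 h, and it fell by a log2 change of 1.35 (standard error 0.10, adjusted p = 3.09e-08). *Cxcl14* also fell, by 0.37. *Ccl5* stood at 0.038 (adjusted p = 0.748). BeadChips 1 and 2 gave medians of 0.15 and 0.12, and the change of *Cxcl9* was 0.27 and 0.19.

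All 10 measured genes of NF-κB subunits and IκB proteins rose, 8 at least 2-fold, at a median of 1.77. *Nfkbia* read 26734, 23969.5 and 30611 at 4 h, against 6464, 5250.1 and 5287 at 0 h, a 4.78-fold rise, and every 4 h array was over 3 times any 0 h array. *Nfkbie*, the gene of IκBε, rose 6.34-fold, *Nfkb2*, the gene of the p100 precursor, 4.70-fold, *Rel* 3.66-fold and *Rela*, which encodes p65, 1.98-fold. Of 13 feedback inhibitors of TLR signaling 11 rose, 6 at least 2-fold, and 1 fell. *Tnfaip3*, which encodes the ubiquitin-editing enzyme A20, read 8050.0, 7634 and 8523 at 4 h, against 652, 652 and 675 at 0 h, a 12.2-fold rise with a log2 change of 3.61 (standard error 0.083, adjusted p = 8.25e-14). The adaptor gene *Traf1* rose 7.13-fold, the ubiquitin ligase *Peli1* 4.37-fold and *Zc3h12a*, the gene of the RNase regnase-1, 1.94-fold with 1829, 1741 and 1958 at 4 h, against 1112, 879 and 869.9 at 0 h. *Sigirr*, a receptor that dampens IL-1 and TLR signaling, fell by 0.37 (adjusted p = 0.0125). The NF-κB and IκB list had medians on BeadChips 1 and 2 of 0.072 and 0.47, with no member 2-fold higher, and the feedback list 0.32 and 0.36.

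**Figure D3:**
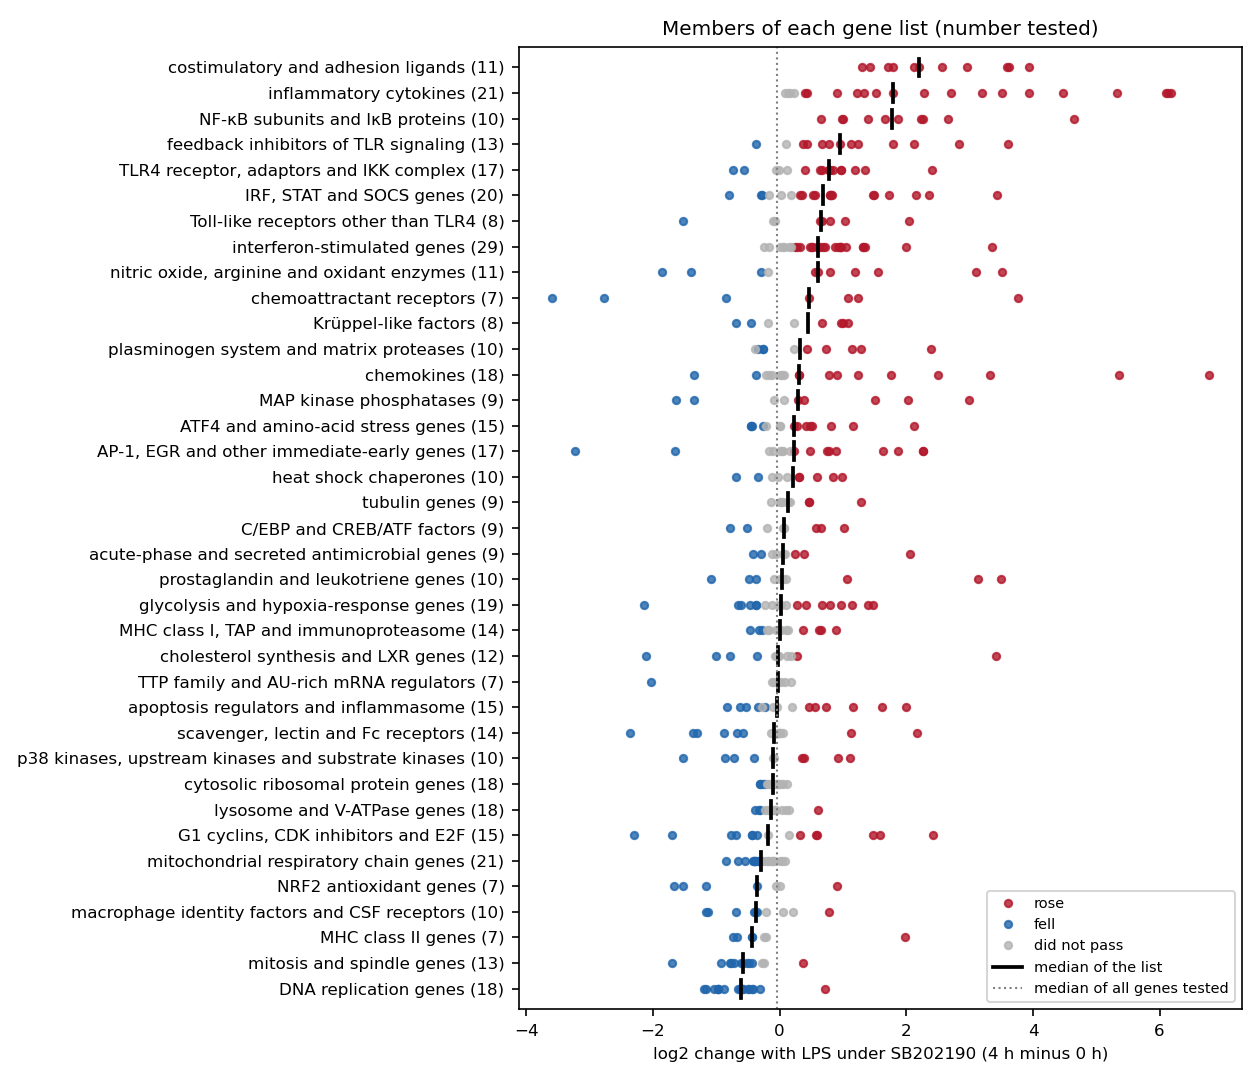
Log2 change with LPS under SB202190 (4 h minus 0 h) of every tested gene in each list, with the median of the list. Costimulatory ligands, cytokines and the NF-κB and IκB genes sit at the high end, with medians of 2.20, 1.79 and 1.77, and DNA replication and mitosis genes at the low end, with -0.61 and -0.57.

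The receptor and its adaptors moved less. Of 17 genes of the TLR4 receptor, its adaptors and the IKK complex 12 rose and 2 fell, 3 and 0 of them by at least 2-fold. *Tlr4* itself fell, with 753, 701 and 736 at 4 h, against 1062, 1344 and 1235 at 0 h and a log2 change of -0.73 (standard error 0.096, adjusted p = 1.61e-05). *Ticam2*, the gene of the adaptor TRAM, rose 5.29-fold, the kinase genes *Map3k8* and *Ikbkb* 2.54-fold and 2.28-fold, and *Ikbkg*, the regulatory subunit of IKK, fell by 0.57. Among 8 other Toll-like receptors 5 rose and 1 fell. *Tlr2*, the receptor of bacterial lipoproteins, rose 4.10-fold with 21250.4, 20451 and 25799 at 4 h, against 5586, 5953 and 4882 at 0 h, and *Tlr13*, which senses bacterial ribosomal RNA, fell 2.88-fold with 2419.7, 2709 and 2718 at 4 h, against 8050.0, 8089 and 6509 at 0 h. The medians of these lists were 0.78 and 0.66, and on BeadChips 1 and 2 0.087 and 0.13 for the first and 0.087 and 0.11 for the second.

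Of 10 kinases of the blocked pathway itself 4 rose and 4 fell, beside 22% and 29.6% of all genes. *Mapk14*, which encodes the p38α that SB202190 binds, read 1994, 1972 and 2123 at 4 h, against 3903, 3806 and 3351 at 0 h and fell by a log2 change of 0.86 (standard error 0.089, adjusted p = 1.22e-06). Its substrate kinase gene *Mapkapk2*, which encodes MK2, read 11138, 10809 and 11952 at 4 h, against 6132, 4853 and 4799 at 0 h and rose by 1.11 (standard error 0.10, adjusted p = 3.64e-07). The upstream kinase gene *Map2k3* fell by 0.72 and *Mknk2*, a kinase of the translation factor eIF4E, by 1.52. These are mRNA signals, and no kinase activity was measured on the arrays.

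Among 9 MAP kinase phosphatases 5 rose and 2 fell, beside 22% and 29.6% of all genes. *Dusp16*, the gene of a phosphatase of JNK and p38, rose 7.92-fold with 4877, 5327 and 4886 at 4 h, against 585, 673 and 648 at 0 h, *Dusp2* 4.07-fold with 1384, 1575 and 1349.8 at 4 h, against 399.6, 339 and 322 at 0 h and *Dusp8* 2.84-fold. *Dusp1* fell, with 2145, 1909 and 2238 at 4 h, against 4667, 5941 and 5549 at 0 h and a log2 change of -1.36 (standard error 0.10, adjusted p = 4.05e-08), so that all 4 h arrays were below all 0 h arrays. *Dusp6*, a phosphatase of ERK, fell 3.1-fold. The sign of *Dusp1* was the opposite on BeadChips 1 and 2, at 0.92 and 1.14. Of 7 genes of TTP and other regulators of AU-rich mRNAs none rose and *Zfp36l1*, a relative of TTP, fell 4.08-fold. *Zfp36*, the gene of TTP, read 2661, 2359.8 and 2286 at 4 h, against 1985, 2369 and 2517 at 0 h, with overlapping groups and a log2 change of 0.093 (adjusted p = 0.477).

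Of 17 immediate-early genes measured 9 rose, 4 at least 2-fold, and 2 fell. *Fos*, which encodes a subunit of AP-1, showed one of the largest falls of the table, with 178, 176 and 192 at 4 h, against 1904, 1551 and 1704 at 0 h, a 9.42-fold fall at a log2 change of -3.24 (standard error 0.094, adjusted p = 9.17e-13). *Jun*, its partner, fell 3.12-fold with 315, 321 and 331 at 4 h, against 823, 1028 and 1206 at 0 h. The AP-1 genes *Batf* and *Junb* rose 4.79-fold and 3.64-fold, *Maff*, a small MAF factor, at least 4.02-fold and *Ier3*, an early stress gene, 3.09-fold. *Egr1* stood at 0.0081 (adjusted p = 0.954). Of 9 C/EBP and CREB factors 3 rose and 2 fell, shares not far from the 22% and 29.6% of all genes. *Cebpb*, the gene of C/EBPβ, read 19785, 21852 and 19902 at 4 h, against 23437, 18397 and 18067 at 0 h, at a log2 change of 0.048 (adjusted p = 0.734), *Crem*, a CREB relative, rose 2.02-fold and *Cebpa*, a factor of myeloid differentiation, fell by 0.78. *Fos* was lower on BeadChips 1 and 2 as well, by log2 changes of -0.68 and -1.37.

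The 11 measured genes of costimulatory and adhesion ligands all rose at least 2-fold, at a median of 2.20, where 4.7% of all genes did. Beside *Cd40*, *Vcam1*, a ligand of leukocyte integrins, read 1130.1, 989 and 988 at 4 h, against 90.9, 64.6 and 100.3 at 0 h, at least 8.50-fold higher. *Cd83*, a marker of mature antigen-presenting cells, rose 12.0-fold with 7805, 7186 and 7752 at 4 h, against 573, 704 and 621 at 0 h, *Icam1* 7.76-fold and the early activation marker *Cd69* 5.94-fold. The smallest rise of the list was that of *Cd86*, a ligand of CD28, at 2.47-fold. On BeadChips 1 and 2 the median was 0.069 and 0.045 and 1 member on each was at least 2-fold higher.

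Genes of antimicrobial and lipid mediators were led by single enzymes. *Nos2*, the inducible nitric oxide synthase, rose 11.4-fold with 1776, 2270.3 and 1736 at 4 h, against 169, 162 and 173 at 0 h, and *Slc7a2*, the transporter that brings in its substrate arginine, 8.61-fold. *Gch1*, which makes the cofactor of the synthase, rose 2.94-fold, and *Arg1* and *Ass1*, which break down arginine and make its precursor, fell 3.61-fold and 2.65-fold. In all 7 of the 11 genes of this list rose and 3 fell. Of 10 prostaglandin and leukotriene genes 3 rose and 3 fell, shares close to the 22% and 29.6% of all genes. *Ptgs2*, the gene of COX-2, read 1147, 1050.1 and 1127 at 4 h, against 99.3, 97.8 and 97.2 at 0 h, at least 9.11-fold higher, the prostaglandin E synthase gene *Ptges* rose 8.74-fold and the thromboxane synthase gene *Tbxas1* fell 2.11-fold. The change of *Nos2* on BeadChips 1 and 2 was 1.0 and 1.03. Of 9 acute-phase and secreted antimicrobial genes 3 rose, 1 at least 2-fold, and 2 fell, at a median of 0.055. On BeadChips 1 and 2 the median of that list was higher, at 0.96 and 0.84, and 4 and 3 members were at least 2-fold higher.

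Interferon-stimulated genes rose often but little. Of 29 measured 22 rose and none fell, 6 of them at least 2-fold, at a median of 0.61. The guanylate-binding protein gene *Gbp5* rose 10.2-fold with 10717, 11973 and 9944 at 4 h, against 1096, 1012 and 1083 at 0 h and *Ifi205*, a gene of the AIM2 family, 4.00-fold, while *Isg15* rose by a log2 change of 0.69 (adjusted p = 4.24e-05) and the antiviral helicase gene *Ddx58* stood at 0.0073 (adjusted p = 0.954). Of 20 IRF, STAT and SOCS genes 14 rose and 3 fell. *Stat5a*, which relays CSF signals, read 5552, 5879 and 5923 at 4 h, against 583, 562 and 466 at 0 h, a 10.8-fold rise, the kinase gene *Jak2* rose 5.16-fold, *Socs3*, an inhibitor of JAK signaling, 4.44-fold and *Irf1* 3.31-fold. *Socs2* fell by 0.80. The list medians on BeadChips 1 and 2 were 0.024 and 0.036 for interferon-stimulated genes, and -0.086 and -0.0067 for IRF, STAT and SOCS genes.

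Few antigen presentation genes moved far. Of 7 MHC class II genes 4 fell and 1 rose, and the one that rose was *Ciita*, the activator of the others, with 865, 697 and 805 at 4 h, against 167, 225 and 214 at 0 h and a 3.92-fold rise. *H2-DMa*, a chaperone of peptide loading, fell by 0.73 and the chain genes *H2-Ab1* and *H2-Eb1* by 0.43 and 0.43. Of 14 MHC class I, TAP and immunoproteasome genes 4 rose and 3 fell, none of them 2-fold and in shares near those of all genes (22% and 29.6%). *Ciita* on BeadChips 1 and 2 stood at -0.13 and 0.24, and *H2-Ab1* at 0.23 and 0.51 and *H2-Eb1* at 0.24 and 0.33 had the opposite sign there.

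Of 19 genes of glycolysis and the hypoxia response 8 rose and 6 fell, beside 22% and 29.6% of all genes. *Hif1a*, the oxygen-regulated subunit of HIF-1, rose 2.77-fold, the hexokinase genes *Hk2* and *Hk1* 2.63-fold and 2.20-fold, while the glycolytic enzyme genes *Pkm* and *Aldoa* fell by 0.65 and 0.61. *Vegfa*, a HIF target and angiogenic factor, fell 4.39-fold with 203, 203 and 212 at 4 h, against 851, 935 and 929.8 at 0 h. Of 12 cholesterol and LXR genes 2 rose and 4 fell, near the 22% and 29.6% of all genes, among them *Ch25h*, which makes 25-hydroxycholesterol and rose 10.7-fold with 6196, 5947 and 6328 at 4 h, against 699, 534 and 507 at 0 h, and the LXR target *Abcg1*, a sterol exporter, which fell 4.32-fold with 204, 190.2 and 205 at 4 h, against 1028, 795 and 783 at 0 h. Of 7 NRF2 target genes 4 fell, with *Hmox1*, the heme oxygenase gene, at 1591, 1622 and 1364 at 4 h, against 4482, 5287 and 4739.7 at 0 h and a 3.17-fold fall and *Gclm*, for glutathione synthesis, at 2.86-fold, and *Txnrd1* alone rose, by a log2 change of 0.90. The cystine transporter gene *Slc7a11*, here listed with ATF4 targets, rose 4.37-fold, and 8 of the 15 genes of that list rose and 4 fell. Of 21 respiratory chain genes 11 fell and none rose, at a median of -0.29, and none of these moved 2-fold. For BeadChips 1 and 2 the median of the respiratory chain list was 0.10 and 0.094 and that of the NRF2 list -0.27 and -0.30.

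The largest fall was that of *Cx3cr1*, the receptor of the chemokine fractalkine, which read 175, 164 and 193 at 4 h, against 1639, 2385 and 2490.0 at 0 h, a 12.1-fold fall at a log2 change of -3.59 (standard error 0.13, adjusted p = 1.37e-11). *Rab7b*, a GTPase of late endosomes, read 1032, 1022 and 1169 at 4 h, against 11708, 11789.5 and 11761 at 0 h, a 11-fold fall. In both genes the 4 h arrays stood far below the 0 h arrays, and in 2983 genes (33%) of the table each 4 h array was below each 0 h array. *Snx24*, a sorting nexin, fell 8.31-fold, *Cnr2*, the cannabinoid receptor CB2, 7.61-fold with 200.4, 215 and 225 at 4 h, against 1472, 1927 and 1503 at 0 h, and *Cxcr4*, the receptor of CXCL12, 6.79-fold with 401, 373 and 396 at 4 h, against 2950.3, 2641 and 2376 at 0 h. *Smad6*, an inhibitor of BMP signaling, fell 6.44-fold and *Id1*, a target of BMP signaling that blocks basic helix-loop-helix factors, 5.91-fold. *Dgkz*, a diacylglycerol kinase, *Dbp*, a clock-controlled transcription factor, and *Sesn1*, a stress-induced sestrin, fell 5.77-fold, 5.65-fold and 5.48-fold. The palmitoyltransferase gene *Zdhhc14* fell 6.38-fold, and *Tmem86a*, *Tmem51* and *Pald1* fell 7.07-fold, 5.88-fold and 5.40-fold. Of the 15 largest falls 1 was at least 2-fold lower on BeadChip 1 and 1 on BeadChip 2, where *Cx3cr1* stood at -0.40 and -0.27.

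Of 7 chemoattractant receptors 4 rose and 3 fell, with *Ccrl2*, which binds the chemoattractant chemerin, 13.5-fold higher with 22685, 22423 and 20561 at 4 h, against 1669, 1589 and 1599 at 0 h and the fatty acid receptor *Gpr84* 2.36-fold higher. Of 14 scavenger, lectin and Fc receptors 2 rose and 6 fell, beside 22% and 29.6% of all genes. *Fcgr1*, the high-affinity IgG receptor, fell 5.11-fold with 2547, 2293 and 1959 at 4 h, against 12569.9, 11267 and 10778 at 0 h, *Fcgr4* 2.47-fold and the scavenger receptor *Stab1* 2.57-fold. *Clec4e*, which binds a mycobacterial glycolipid, and the inhibitory IgG receptor *Fcgr2b* rose 4.52-fold and 2.18-fold. Of 10 macrophage identity factors and CSF receptors 6 fell and 1 rose, led by *Mertk*, a receptor for the uptake of dying cells, at 2.23-fold and *Csf2rb*, the shared chain of the GM-CSF receptor, at 2.19-fold. *Spi1*, the gene of PU.1, fell by 0.40 (adjusted p = 0.00317). The median of this list was -0.37, and on BeadChips 1 and 2 it was 0.0032 and -0.014.

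Most genes of DNA replication and mitosis fell, by small amounts. Of 18 DNA replication genes 17 fell, 3 of them 2-fold, and *Tyms*, which makes thymidylate, rose by a log2 change of 0.72 (adjusted p = 1.02e-05). The replicative helicase genes *Mcm6* and *Mcm5* read 798, 801 and 717 at 4 h, against 1801, 1695 and 1788 at 0 h for *Mcm6* and 989.8, 1091 and 1009.7 at 4 h, against 2043, 2338 and 2562 at 0 h for *Mcm5*, and fell by log2 changes of 1.19 and 1.16 (adjusted p = 2.02e-08 and 1.13e-07). *Uhrf1*, a partner of DNA methyltransferase, fell by 1.03. Of 13 mitosis genes 10 fell, with the centromeric histone gene *Cenpa* at 1307, 1362 and 1421 at 4 h, against 4678, 3772 and 4896 at 0 h, a 3.24-fold fall, and the spindle factor gene *Tpx2* was the 1 that rose, by 0.38. Both medians also lay below 0 on the other BeadChips, at -0.52 and -0.43 for DNA replication and -0.62 and -0.79 for mitosis on BeadChips 1 and 2, beside medians of all genes of 0.0033 and -0.007. Of 15 genes of the G1 phase 6 rose and 7 fell, beside 22% and 29.6% of all genes. *Ccnd2* rose 5.37-fold with 7647, 5306 and 5765 at 4 h, against 1568, 985 and 978 at 0 h, the CDK inhibitor gene *Cdkn1a* 3.01-fold and *Ccne1* 2.79-fold, while *Ccnd1* fell 4.90-fold with 1694, 1559.9 and 1655 at 4 h, against 8284, 7627 and 8134 at 0 h and *E2f2* 3.24-fold. In bulk RNA, fewer cells of a kind and less RNA per cell cannot be told apart.

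The LPS response of the DMSO control was set beside these changes in a fit of all 12 arrays. Across the 9027 genes the log2 change with SB202190 and with DMSO correlated at 0.81 (Pearson r, a description across genes, which are not replicates). DMSO replicate 2 at 0 h stood apart from the other 0 h arrays of its group, with *Il6* at 5657, 5765 and 19446 at 4 h, against 89.7, 3981 and 137 at 0 h in the DMSO groups and *Il1b* at 42655, 34508 and 51928 at 4 h, against 123, 20561 and 3997 at 0 h. Across genes that array correlated at 0.985 (Pearson r) with DMSO replicate 2 at 4 h, against 0.907 and 0.918 with the other DMSO arrays at 0 h. Whether it carries the wrong label was not tested. Differences are therefore given with and without that array. The LPS change differed between SB202190 and DMSO for 2 of 9027 genes by limma (0.0222%), both of them lower with SB202190, and for no gene that was higher (511 genes at an unadjusted p under 0.05 in either direction). Without DMSO 0 h replicate 2, 35 genes were higher (0.388%) and 24 lower (0.266%). Both comparisons rest on the DMSO arrays, whose spread was the wider. Their labels conflict in part as well, since the normalized DMSO replicate 3 at 4 h had the probe order of an intensity column labelled SB202190 0 h replicate 3, and replicates 1 and 2 of DMSO were exchanged at both times. Without DMSO 4 h replicate 3 the interaction called 8 genes higher and 3 lower.

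**Figure D4:**
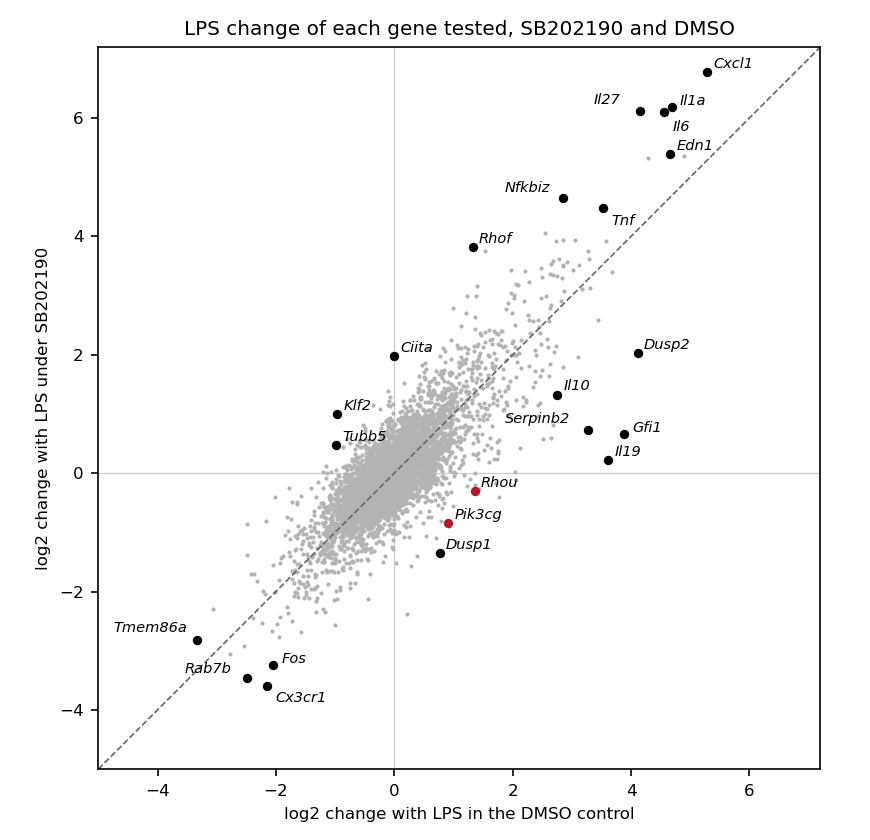
Log2 change with LPS (4 h minus 0 h) under SB202190 on the vertical axis against that in the DMSO control on the horizontal axis, 1 point per gene. The changes correlated at r = 0.81 across genes, with all DMSO arrays included. *Pik3cg* and *Rhou* lie below the diagonal of equal change, as do *Dusp1*, *Dusp2* and *Il10*, while *Ciita*, *Klf2* and *Tubb5* lie above it.

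The 2 genes were *Pik3cg* and *Rhou*. *Pik3cg*, the catalytic subunit of the PI3-kinase downstream of chemokine receptors, read 520.0, 510.4 and 526 at 4 h, against 1006, 899 and 888 at 0 h with SB202190. With DMSO it read 1809.9, 1573 and 1578 at 4 h, against 829.9, 819.7 and 989 at 0 h. It fell with LPS under the inhibitor (log2 change -0.84) and stood higher at 4 h on every DMSO array (0.91), a difference in the LPS change of -1.75 (adjusted p = 0.00557, 0.00310 without DMSO 0 h replicate 2). *Rhou* read 152, 142 and 138 at 4 h, against 181, 180.5 and 171 at 0 h with SB202190 and 254, 294 and 298 at 4 h, against 101, 105 and 126 at 0 h with DMSO. The difference in its LPS change was -1.66 (adjusted p = 0.00611, 0.00417 without that array), where 2 of the 3 DMSO arrays at 0 h were below background. Both calls were lost without replicate 1 of all groups (adjusted p = 1.0 for each) and without replicate 3 (0.307 for each), that of *Rhou* also without replicate 2 (0.0656), and both from the intensities. On BeadChips 1 and 2 the change under SB202190 was 0.54 and 0.47 for *Pik3cg* and 0.56 and 0.74 for *Rhou*, opposite in sign to the normalized values.

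Other genes were singled out after their values had been seen, because their differences passed only without DMSO 0 h replicate 2. The repressor gene *Gfi1* read 177, 141 and 183 at 4 h, against 111, 101 and 103 at 0 h with SB202190 and 2735, 833 and 2668 at 4 h, against 111, 145 and 119 at 0 h with DMSO. The interaction had an adjusted p of 0.213, and of 0.0285 without the array. The IL-10 family member *Il19* read 103, 116 and 127 at 4 h, against 99.4, 94.5 and 102 at 0 h with SB202190, where 1 array was above background, and 1769, 7083 and 1128 at 4 h, against 96.8, 811 and 97.2 at 0 h with DMSO. Its interaction had an adjusted p of 0.663, and of 0.0322 without the array. *Serpinb2*, the gene of the plasminogen activator inhibitor PAI-2, read 145, 169 and 184 at 4 h, against 92.6, 98.3 and 108 at 0 h with SB202190 and 1089, 2823 and 3755 at 4 h, against 85.8, 1077 and 139.5 at 0 h with DMSO, with an adjusted p of 0.859 and, without the array, of 0.0234. No size is given for these differences, since none of the 3 genes was above background at 0 h with SB202190. In the normalized values of all 3 genes the DMSO arrays at 4 h were above all arrays with SB202190. In the intensities *Serpinb2* read 711 and 1526 in the columns labelled SB202190 4 h of BeadChips 1 and 2. The columns labelled DMSO 4 h read 1646 and 626 there, so that on BeadChip 2 the SB202190 column was higher. *Gfi1* was lower with SB202190 on both, at 220 and 203 against 485 and 1593. The changes under SB202190 there were 1.36 and 1.005 for *Serpinb2* and 1.39 and 1.05 for *Gfi1*.

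*Dusp2* and *Il10* rose under SB202190 and stood at higher levels with DMSO at 4 h. *Dusp2* read 1384, 1575 and 1349.8 at 4 h with SB202190, and with DMSO 9225, 13679 and 7909.9 at 4 h, against 126, 5872 and 260.5 at 0 h. Its difference in the LPS change was -2.09 (adjusted p = 1.0), and -3.76 (adjusted p = 0.00388) without DMSO 0 h replicate 2. *Il10* read 779, 812 and 708 at 4 h with SB202190, and with DMSO 4793, 6988 and 4410.3 at 4 h, against 292, 5450.3 and 303 at 0 h, at differences of -1.43 (adjusted p = 1.0) and -2.83 (adjusted p = 0.00129). *Dusp1* had 2145, 1909 and 2238 at 4 h with SB202190, and with DMSO 16081, 42215 and 11973 at 4 h, against 5733, 25441 and 11289 at 0 h. The difference in its change, -2.12 (adjusted p = 0.707) and -2.68 (adjusted p = 0.0838) without the array, did not pass. For *Zfp36* the values were 2661, 2359.8 and 2286 at 4 h with SB202190 and 20712, 21302 and 16288 at 4 h, against 8170.1, 21581 and 8183 at 0 h with DMSO, at differences of -0.68 (adjusted p = 1.0) and -1.15 (adjusted p = 0.0434). On BeadChips 1 and 2 the change under SB202190 was 0.92 and 1.14 for *Dusp1* and 0.45 and 0.95 for *Zfp36*. In the intensities labelled 4 h, under their own labels, *Dusp1* read 23694, 18985 and 1111 with SB202190 and 26691, 9899 and 3555 with DMSO. The column that read 3555 has the probe order of the normalized SB202190 0 h replicate 2. The column with the probe order of the normalized DMSO 4 h replicate 3 read 7350.

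**Figure D5:**
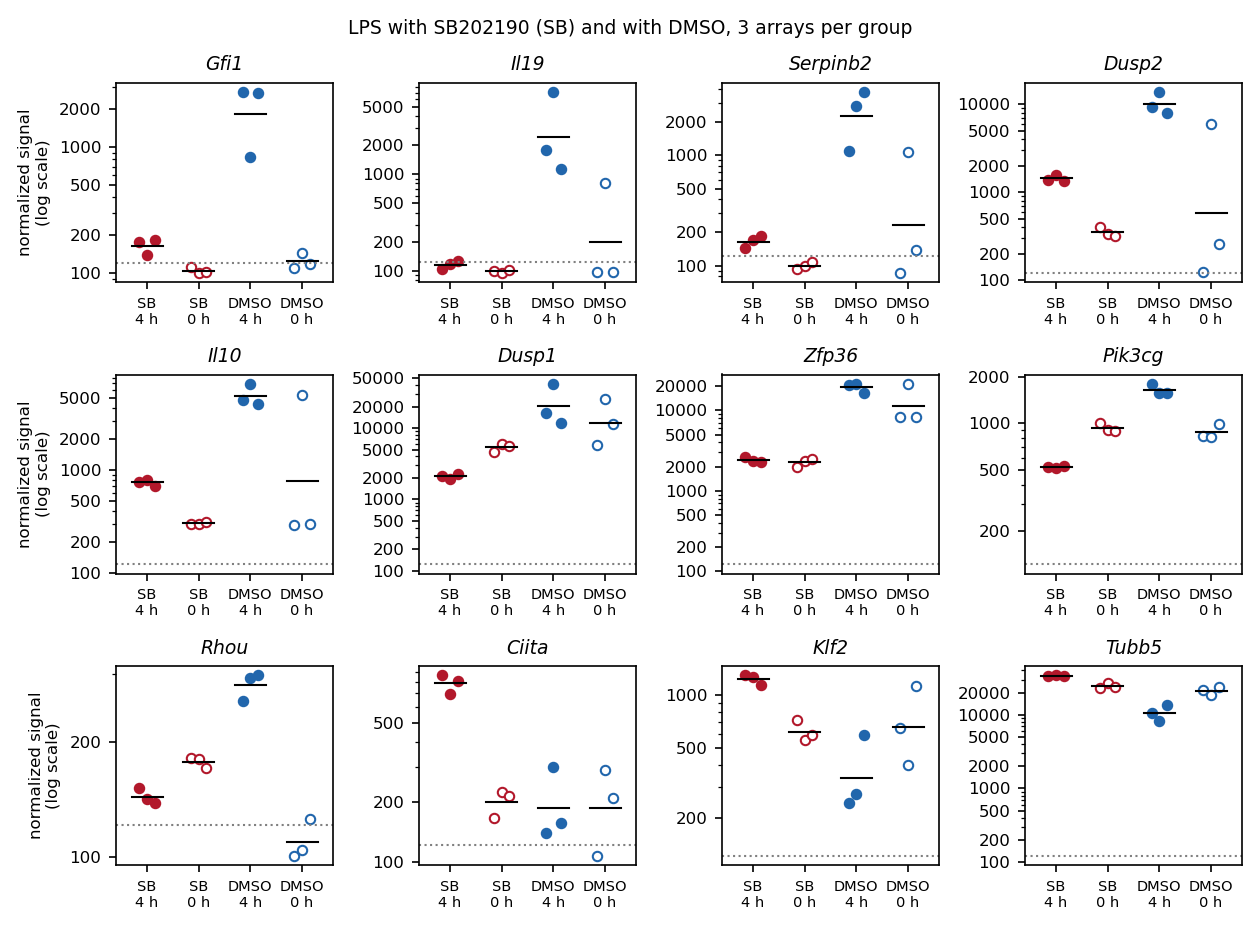
Normalized signal of single genes in the 4 groups on a log scale, each array as a point, with SB202190 at 4 h and 0 h to the left of DMSO at 4 h and 0 h. In these normalized values the inhibitor arrays at 4 h lie above every DMSO array at 4 h in *Ciita*, *Klf2* and *Tubb5*. In the other genes shown, among them *Gfi1*, *Il19*, *Serpinb2* and *Dusp1*, they lie below every DMSO array at 4 h.

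Some genes stood higher under SB202190. *Tubb5*, a β-tubulin gene, read 33920.3, 34508 and 33220.1 at 4 h, against 22925, 26734 and 23817 at 0 h with SB202190, a rise of 0.47, and 10620.0, 8323 and 13495 at 4 h, against 21302, 18427 and 23529 at 0 h with DMSO, where its change was -0.98. The difference was 1.46 (adjusted p = 0.213), and 1.55 (adjusted p = 0.0234) without DMSO 0 h replicate 2. Of 9 tubulin genes 3 rose and none fell with SB202190, at a median of 0.13, beside a median of -0.78 with DMSO. The tubulin median under SB202190 on BeadChips 1 and 2 was -0.49 and -0.55 and the change of *Tubb5* -0.98 and -1.42, below 0 as with DMSO. *Ciita* read 140.0, 299 and 157 at 4 h, against 108, 290.1 and 211 at 0 h with DMSO, at a difference of 1.97 (adjusted p = 0.420, 0.149 without the array), and *Klf2*, a factor that restrains macrophage activation, read 1296, 1270.0 and 1134 at 4 h, against 724, 552 and 589.9 at 0 h with SB202190 and 242, 273 and 589 at 4 h, against 648, 399 and 1116 at 0 h with DMSO, at 1.96 (adjusted p = 0.473, 0.0628 without the array), so that neither passed. *Tnfaip3* and *Il1b* had differences of 0.31 (adjusted p = 1.0) and 1.04 (adjusted p = 1.0), and of -1.03 (0.0759) and -0.59 (0.909) without the array. A p that misses the threshold at this spread does not show that the changes were alike.

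Markers were read on the 6 inhibitor arrays to check the cells. All 6 macrophage markers on the arrays were above background on all 6, with summed signals of 99964 to 107459 at 4 h, against 96913 to 103621 at 0 h. These sums rest on *Lyz2*, *Cd14* and *Adgre1*, and 2 of the 6, *Fcgr1* and *Mertk*, fell at least 2-fold. None of 5 T cell, 3 NK cell or 2 erythroid markers was above background on any of them. The 6 neutrophil markers summed to 1139 to 1237 at 4 h, against 1412 to 1630.5 at 0 h, with 4 of them above background on no array, and the 5 fibroblast markers to 764 to 831 at 4 h, against 662 to 681 at 0 h, with 3 above background on none. Of 4 B cell markers *Cd79b* alone was above background, on 2 arrays, and of 4 mast cell and basophil markers *Cpa3* alone, on 2. Among 4 dendritic cell markers, which summed to 470.0 to 516 at 4 h, against 446 to 474 at 0 h, *Siglech* was above background on all 6 and *Zbtb46* on 3. Their part in the results was not tested.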

How the data were processed

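For each of 25697 probes the authors deposited a linear intensity from BeadStudio 3.1 that was not normalized, with a detection p-value against negative control beads. They also deposited normalized values, and the methods name quantile normalization in Partek. The 12 normalized columns of this experiment were analysed here under their own labels on the log2 scale. Every column of sample values was assigned to a sample. Detection p-values come only with the intensities, so background was set at 1 signal level that the median number of detected probes (12042) exceeded, a log2 signal of 6.93 in the normalized values. Probes above it on at least 3 of the 12 arrays were kept (13395, of which 797 have no gene), and 2489 genes with several probes were represented by the brightest, leaving 9027 genes. Of all probes 23978 have 1 gene symbol in the platform annotation, 1719 none and 0 several.

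LPS with SB202190 was tested with limma 3.58.1 in R 4.3.3 (with the package data.table in version 1.17.8) on the 6 inhibitor arrays, 2-sided, with Benjamini-Hochberg adjustment over the 9027 genes at an adjusted p under 0.05. Differences from the DMSO control are the interaction in a fit of the 12 arrays. Where all 3 arrays of a group were below background, the fold is given against that level as at least that much. The test was run on simulated data first. Correlations between the deviations of same-numbered SB202190 arrays were 0.0617 to 0.0933, so the replicate numbers do not pair them. For DMSO arrays they were 0.515 to 0.579, a pairing that the main interaction fit leaves out. With the replicate number as a block the interaction also called 0 genes higher and 2 lower. Changes on single BeadChips come from the intensities, quantile-normalized over the 12 arrays, each column under the label of the normalized column of the same probe order where there is one. Named genes are the 15 largest rises and falls whose groups did not overlap, up to 5 members of each list with the largest change among those that passed, genes the study measured by PCR, the 2 genes that passed the interaction, and *Mapk14* and *Mapkapk2*. Genes outside this rule, among them list members that did not pass, *Il10*, *Cxcl9*, *Tlr4*, *Gfi1*, *Il19* and *Zfp36*, were named after their values were seen. The comparison and the lists were chosen with earlier results of these data known. Promoter sequences are those of RefSeq (GRCm38.p6). Python 3.11.15 drew the figures, using matplotlib 3.10.9 and pandas 2.3.3. The number of arrays limits the precision.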

Additional observations from a re-analysis of the deposited data

Results flagged for a closer look

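The LPS change of *Pik3cg* and *Rhou* differed between SB202190 and DMSO by the interaction test of limma, at -1.75 and -1.66 on the log2 scale (adjusted p = 0.00557 and 0.00611), lower with SB202190 in both. Both calls ended without replicate 1 or replicate 3 and with the intensities under either set of labels, and that of *Rhou* without replicate 2. With the labels of matching columns the LPS change under SB202190 had the opposite sign in both genes. The intensity columns labelled SB202190 0 h on BeadChips 1 and 2, which no normalized column matches, read high in genes that LPS raised. In each of the 15 leading rises they were above the traceable 0 h column of BeadChip 3. *Il6* read 2290 and 1782 against 76.1 there, and *Rhof* 264 and 270 against 180. The 2 genes set beside the normalized arrays here, *Cd40* and *Cxcl1*, were chosen after their values were seen. After quantile normalization *Cd40* read 38884 and 40026 in the columns labelled SB202190 4 h on these BeadChips and 36697 and 34415 in those labelled 0 h, beside 3393, 3627 and 3251 in the normalized arrays at 0 h. *Cxcl1* read 1104 and 2159 in the columns labelled 4 h and 609 and 1321 in those labelled 0 h, beside 216, 193 and 174 in the normalized arrays at 0 h. Which of the labels is right was not tested.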

How the results depend on the processing

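The counts of genes that moved with LPS under SB202190 were of the same size with array weights per group (1959 higher and 2607 lower), with the replicate block (2040 and 2733), with log2(value + 50), without a filter on low values, with other filters, with the mean of all probes of a gene and with an intensity trend. A single fit of the 4 groups called 494 higher and 457 lower, and 185 at least 2-fold lower, and all 951 were calls of the fit of 6 arrays with the same direction. The methods' t-test with at least a 2.5-fold change gave 278 higher and 156 lower, and 278 and 153 after Benjamini-Hochberg adjustment. With the SB202190 arrays averaged as 1 sample per time, limma called 0 genes (202 at an unadjusted p under 0.05). From the intensities it called 0 with their own labels (102 unadjusted), 0 with the labels of the matching normalized columns (396) and 0 with the BeadChip as a block as well (1340), the last 2 settings being chosen after seeing the data. Leaving out 1 replicate or array at a time gave 1556 to 2036 higher and 2068 to 2797 lower, and at least 2-fold 419 to 452 higher and 296 to 317 lower. The replicate block changed no call among the named genes.

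The interaction called 0 genes higher and 2 lower with the replicate block too (572 unadjusted), and 0 lower from the intensities under either set of labels (9 and 97 unadjusted). Leaving out 1 replicate or array gave 0 to 35 higher and 0 to 24 lower. It was 35 and 24 without DMSO 0 h replicate 2, 8 higher without DMSO 4 h replicate 3, 6 lower without DMSO 4 h replicate 2, 1 higher and 9 lower without replicate 2, and 0 lower without replicate 1 (199 unadjusted) or replicate 3 (410). Signs were compared only for those of the 149 named genes that passed the main test. Of them, 52 had the opposite sign from the intensities with their own labels and 9 with the labels of matching columns, and in other settings none had. The cause was not tested. With their own labels, genes that rose in the normalized values stood at log2 changes of *Slc7a11* -1.07, *Il12a* -0.78, *Ifnb1* -0.77, *Serpinb2* -0.64, *Vcam1* -0.61, *Txnrd1* -0.59, *Rel* -0.58, *Tlr2* -0.54, *Gfi1* -0.52, *Peli1* -0.51, *Cdkn1a* -0.49, *Cd69* -0.48, *Hk2* -0.44, *Rela* -0.39, *Tubb5* -0.35, *Tnf* -0.31, *Ch25h* -0.29, *Tyms* -0.29, *Osm* -0.27, *Il10* -0.26, *Cxcl10* -0.26, *Icam1* -0.23, *Ccne1* -0.22, *Tpbg* -0.21, *Ccrl2* -0.21, *Mapkapk2* -0.15, *Ikbkb* -0.15, *Il15* -0.14, *Csf2* -0.13, *Nfkb2* -0.13, *Zc3h12a* -0.12, *Gpr84* -0.11, *Cxcl2* -0.092, *Hif1a* -0.089, *Crem* -0.050 and *Ccnd2* -0.013, and genes that fell at *Ccnd1* 0.75, *Rab7b* 0.52, *Mknk2* 0.34, *Cxcl14* 0.25, *H2-Ab1* 0.19, *Sigirr* 0.18, *H2-DMa* 0.18, *Dbp* 0.13, *Rhou* 0.13, *Cxcl9* 0.12, *H2-Eb1* 0.065, *Jun* 0.062, *Dgkz* 0.052, *Tbxas1* 0.049, *Snx24* 0.027 and *Tmem51* 0.0091. With the labels of matching columns, whether or not the BeadChip was a block, *Tubb5* -0.68 and *Txnrd1* -0.060 had risen and *Rhou* 0.34, *Cxcl14* 0.25, *H2-Ab1* 0.15, *Dusp1* 0.13, *Spi1* 0.079, *Pik3cg* 0.073 and *H2-Eb1* 0.024 had fallen. Probes at or near the background level limit what can be said of low signals, and array number limits the rest.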
